A study of Mus musculus with 2 samples.

Results

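Among the barcodes of the mutant library, 266 of 4551 were epithelial cells with an intermediate level of Ager, out of 9012 barcodes in both libraries. They were chosen by measured values: Ager made up from 0.1% to under 0.6% of a cell's unique molecular identifiers (UMIs, each counted as 1 captured RNA molecule). The cells also held at least 3 UMIs of the epithelial genes Epcam, Krt8 and Krt18 together, at most 2 of the alveolar type 2 genes Lamp3, Slc34a2 and Abca3, at most 2 of Pecam1, Col1a2 and Ptprc, and at most 3 of the cycling genes Mki67, Top2a and Birc5. Barcodes further needed at least 500 genes and under 10% mitochondrial UMIs. Levels of these genes are set by the choice. They stand in no count of a gene list below, but were not left out of the counts over all genes. The group is a range on a continuous scale and not a cell type by its own markers.

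The libraries came from mouse lungs at postnatal day 10, where sorted epithelial, immune, endothelial and mesenchymal cells were profiled by droplet 3' RNA sequencing. Labels give 1 control library, titled for Nkx2-1 alone, and 1 mutant library, titled for Nkx2-1 together with Aqp5; no label used here states the alleles, the recombinase or the number of animals. Nkx2-1 is the homeobox transcription factor of the lung epithelium, and mouse lines that carry a recombinase at Aqp5 act in alveolar type 1 cells. The series concerns what Nkx2-1 does in these cells. In the mutant library, 1397 cells that met the same limits with Ager under 0.1% are called low-Ager, and 223 cells with Ager at 0.6% or more are called high-Ager. In the control library, 454 cells were high-Ager.

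Alveolar type 1 (AT1) cells are the thin, very large cells across which gas is exchanged, and alveolar type 2 (AT2) cells make surfactant. Ager encodes a membrane receptor that is among the most abundant transcripts of AT1 cells, so its level is a common measure of AT1 identity. Loss of Nkx2-1 from lung epithelium is known to let genes of the stomach and gut appear, which places stomach genes beside AT1 genes as a readout.

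Intermediate cells took 14.1% (12.6 to 15.8, exact binomial interval) of the 1886 mutant cells that met every limit other than Ager, against 3.74% (2.33 to 5.66) of 562 such control cells. With 1 library per genotype there is no replicate and no test. Intervals are at 95% and cover counting error only, and genotype and library cannot be told apart. Of the 21 control cells in the range, 20 carried RNA of another cell type, meaning at least 10 UMIs of a marker list of that type, or the surfactant gene Sftpc at 1% of UMIs or more. Among the mutant cells in the range the number was 46 of 266. So 220 mutant cells and 1 control cell were in the range without such RNA. Ager per cell ran from 0.104% to just under 0.6%, with a median of 0.292% and quartiles of 0.186% and 0.424%.

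**Figure D1:**
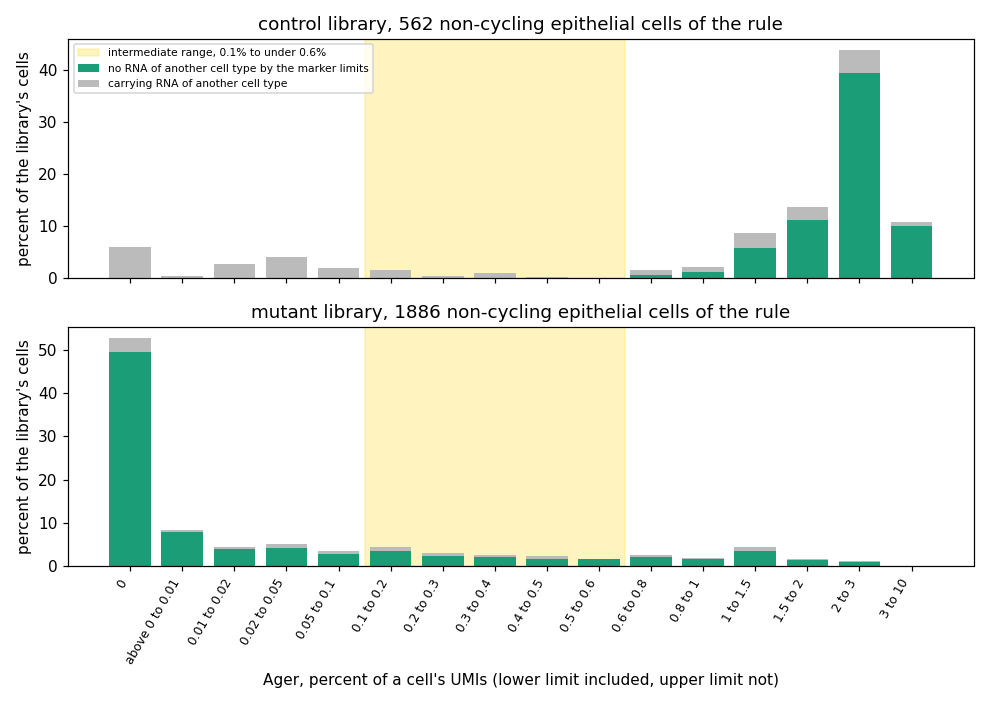
Percent of each library's non-cycling epithelial cells (y axis) by the share of a cell's UMIs that were Ager (x axis, percent), for 562 control and 1886 mutant cells; grey marks cells carrying RNA of another cell type. In the control, 43.8% of cells lay from 2 to under 3%, and in the mutant 52.7% had no Ager UMI, with cells spread over the shaded range.

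Depth was similar in the mutant groups, with medians of 9845 UMIs in intermediate, 12173 in low-Ager and 9540 in high-Ager cells, against 6872.5 in high-Ager control cells. Median mitochondrial shares were 3.70%, 3.61%, 3.42% and 3.11% in the same order. A doublet caller marked 1 intermediate cell. Both libraries shared 27 barcodes, of which 2 belonged to intermediate cells. Of the 46 cells carrying RNA of another cell type, 23 had Sftpc at or above its limit, 18 passed for immune markers, 4 for club, 2 for ciliated and 1 for endothelial markers, and some passed for more than 1. The same limits marked 102 low-Ager, 38 high-Ager and 68 high-Ager control cells. Main values that move by over 1.5 times without these cells are given beside the result.

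Levels of some genes differed across the limits and others did not. Pdpn was 313 counts per 1000000 UMIs (CPM) in the 20 mutant cells from 0.08% to under 0.1% Ager and 361 CPM in the 10 cells from 0.1% to under 0.12%. It was 564 CPM in 34 cells from 0.5% to under 0.6% and 548 CPM in 21 cells from 0.6% to under 0.7%. Tff2, a stomach gene, was less even at the lower limit, at 96.9 CPM just outside and 714 CPM just inside, and was 5.08 and 5.27 CPM inside and outside the upper one. Sprr1a was 399 CPM (339 to 466) inside and 190 CPM (133 to 262) outside the upper limit, and Clu 884 and 579 CPM.

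Nkx2-1 was low in the intermediate cells but higher than in the low-Ager cells. It stood at 38.2 CPM (31.4 to 46.0, 111 UMIs), against 5.33 CPM in low-Ager, 72.4 CPM in high-Ager and 491 CPM in high-Ager control cells. Intermediate cells thus had 12.9-fold less (10.6 to 15.7) than the control cells and 7.17-fold more (5.42 to 9.499) than low-Ager cells. After each cell was thinned to 2000 UMIs, 6.02% (3.48 to 9.58) of intermediate cells had an Nkx2-1 UMI, against 1.503%, 10.3% and 60.6% in the other groups and 0.211% of 475 mutant endothelial cells, which should lack it. Before thinning it was 15.4% of intermediate cells. The endothelial cells had a median of 5300 UMIs before thinning. Without cells carrying RNA of another cell type, Nkx2-1 was 25.2 CPM in intermediate, 1.84 CPM in low-Ager, 67.2 CPM in high-Ager and 494 CPM in control cells, which is 19.6-fold under the control and 13.7-fold above low-Ager cells. The 3' tags do not show which part of the gene was deleted, so they do not check the deletion. The gene lies on chromosome 12 of GRCm38 (mm10), minus strand, from 56531958 to 56536908.

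The 4 genes proposed as markers of these cells, Kcne2, Sfn, Akap5 and Pdpn, were all higher than in low-Ager cells, but none set them apart from high-Ager cells by as much as 2-fold. Pdpn, which encodes podoplanin, a membrane glycoprotein of AT1 cells, had 443 CPM (419 to 468) in intermediate, 58.5 in low-Ager, 698 in high-Ager and 806 in high-Ager control cells. Akap5, an anchor for protein kinase A, had 721 CPM (691 to 753), against 103, 951 and 791 in the same order. These AT1 genes were 7.58-fold (6.99 to 8.22) and 6.98-fold (6.56 to 7.43) above low-Ager cells, and Akap5 was within 1.10-fold (1.04 to 1.16) of the control level.

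Kcne2 and Sfn followed another order, with control cells low. Kcne2, an accessory subunit of potassium channels known for its part in gastric acid secretion, had 432 CPM (408 to 457) in intermediate, 97.0 in low-Ager, 398 in high-Ager and 126 in high-Ager control cells. Its ratio to the high-Ager mutant cells was 1.08 (0.995 to 1.18), an interval that includes 1, while the ratio to control cells was 3.43 (3.07 to 3.84). Sfn, the epithelial 14-3-3 protein sigma, had 295 CPM (275 to 315), against 98.1, 298 and 51.8 CPM. The ratio of Sfn to high-Ager mutant cells was 0.990 (0.894 to 1.10) and to control cells 5.69 (4.82 to 6.74). Kcne2 and Sfn were thus at like levels in intermediate and high-Ager mutant cells and lower in control cells, while Pdpn and Akap5 were higher in both high-Ager groups than in intermediate cells.

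Single cells varied widely in these genes. Per cell, Akap5 ran from 0 to 2365 CPM with a median of 670, and 17 of 266 cells had none. Pdpn had a median of 378 CPM and was at 0 in 26 cells, Kcne2 had a median of 289 CPM and was at 0 in 46, and Sfn had a median of 160 CPM and was at 0 in 75. After thinning, 19 intermediate cells had a UMI of all 4 genes, 74 of 3, 92 of 2, 66 of 1 and 15 of none. At least 3 of the 4 were seen in 34.96% (29.2 to 41.0) of intermediate, 34.5% of high-Ager, 13.0% of high-Ager control and 3.58% of low-Ager cells. Intermediate and high-Ager mutant cells had overlapping intervals, and low-Ager cells lay far under both.

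The sequences before the start of the 4 marker genes are given because these genes divided into 2 pairs against the control. Each is the 250 bases before an annotated start, from RefSeq on GRCm38.p6, read 5′ to 3′ on the gene's strand. Capitals mark CAAG or its reverse complement CTTG, the core of the site that NKX2 homeodomain proteins are known to bind. For Kcne2 (chr16:92292139-92292388, plus strand) the first of 2 annotated starts is shown. The window of Sfn is chr4:133602169-133602418 (minus strand), that of Akap5 chr12:76324641-76324890 (plus strand) and that of Pdpn chr4:143299565-143299814 (minus strand).
Kcne2: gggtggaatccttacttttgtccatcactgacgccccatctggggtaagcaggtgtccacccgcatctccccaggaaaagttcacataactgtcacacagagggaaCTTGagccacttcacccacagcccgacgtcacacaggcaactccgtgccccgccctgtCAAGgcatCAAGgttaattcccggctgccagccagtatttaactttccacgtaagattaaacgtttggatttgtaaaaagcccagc
Sfn: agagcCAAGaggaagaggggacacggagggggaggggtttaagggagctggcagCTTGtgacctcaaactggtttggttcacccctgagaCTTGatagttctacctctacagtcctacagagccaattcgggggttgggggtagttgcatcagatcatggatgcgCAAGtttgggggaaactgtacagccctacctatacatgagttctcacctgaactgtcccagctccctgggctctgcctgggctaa
Akap5: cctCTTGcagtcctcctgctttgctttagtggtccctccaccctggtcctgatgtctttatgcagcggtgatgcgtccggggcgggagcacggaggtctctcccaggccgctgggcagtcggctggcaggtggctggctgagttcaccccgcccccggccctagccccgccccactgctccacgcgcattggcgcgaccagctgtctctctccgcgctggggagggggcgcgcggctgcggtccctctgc
Pdpn: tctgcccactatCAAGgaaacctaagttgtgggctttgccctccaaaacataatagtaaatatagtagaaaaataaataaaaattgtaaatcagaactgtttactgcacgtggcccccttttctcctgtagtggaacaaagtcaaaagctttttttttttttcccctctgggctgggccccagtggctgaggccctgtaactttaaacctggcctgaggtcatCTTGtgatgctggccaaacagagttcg
The letters occurred 3 times for Kcne2, 4 times for Sfn, 1 time for Akap5 and 2 times for Pdpn, and 86.6% of all 32851 such windows hold them at least once. The longer form CAAGTG or CACTTG was in none of these windows and is in 11.6% of all. A match is a description of letters and not a bound site.

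AT1 genes stood between the neighbouring mutant groups. Against low-Ager cells, 35 of 37 measured AT1 genes (38 listed) were higher and 27 were at least 2-fold higher, none 2-fold lower, where 6.27% of all 12368 genes tested were at least 2-fold higher and 9.43% lower. Their median log2 ratio was 1.68, against -0.01 over all genes. A gene counts as measured with at least 20 UMIs over both groups. Against high-Ager mutant cells, 37 of 38 were lower and 20 were at least 2-fold lower, where 2.69% of all 9876 genes were at least 2-fold lower and 5.09% higher. That median was -1.01. Against high-Ager control cells, 33 of 38 were lower, 27 by at least 2-fold and 1 was at least 2-fold higher, where 9.87% of all 10240 genes were at least 2-fold lower and 13.5% higher. The median was -1.66. Cells were sorted on Ager, itself an AT1 gene, so this order is a description of how far other AT1 genes moved with it.

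The distance covered differed from gene to gene. On a linear scale where the low-Ager level is 0% and the high-Ager mutant level is 100%, the median of 31 AT1 genes that differ at least 2-fold between those 2 groups was 40.9%, with a range from 15.2% to 83.2%. In log2 CPM their median was 69.3%, with a range from 26.2% to 88.1%. At the far end stood Lmo7, a protein of cell junctions, at 83.2%, with 1266 CPM against 600 and 1400, and Akap5 at 73.0%. Pdpn was at 60.1%. At the near end stood Sec14l3, a lipid-binding protein, at 15.2%, and Rtkn2, a common AT1 marker, at 17.0% (38.5% and 68.0% in log2 CPM). Rtkn2 had 28.6 CPM in intermediate, 0.6996 in low-Ager, 164 in high-Ager and 705 in high-Ager control cells, which is 24.7-fold (19.8 to 31.1) under the control. Without cells carrying RNA of another cell type, Rtkn2 was 15.9 CPM, 46.3-fold under the control and 21.2-fold above low-Ager cells. Sec14l3 without those cells was 28.5 CPM in intermediate and 0.977 in low-Ager cells. Hopx, an atypical homeodomain protein, was at 33.6%, with 99.5 CPM against 23.0, 250 and 572. Aqp5, the water channel, was at 41.1% with 525 CPM (6.06-fold under the control), and Cldn18, a tight junction claudin, at 34.6% with 1027 CPM. Aqp5 is also named in the title of the mutant library, and whether the Aqp5 allele there changes its own RNA was not tested.

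**Figure D2:**
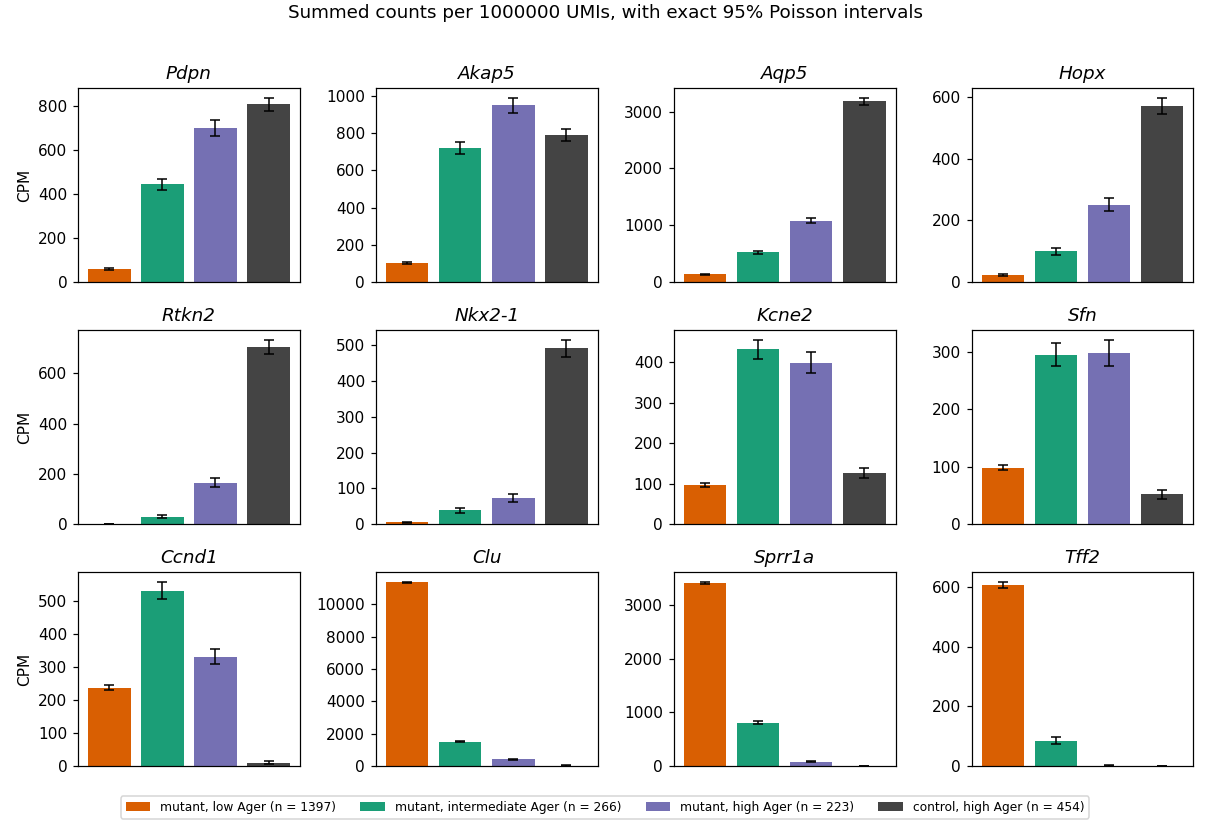
CPM (y axis, linear) of 12 genes in low-Ager, intermediate and high-Ager mutant cells and high-Ager control cells; bars are counts summed over the cells of a group and error lines exact 95% Poisson intervals. Pdpn and Akap5 in intermediate cells lie above the low-Ager bar and under both high-Ager bars. Rtkn2 (28.6 CPM) and Nkx2-1 (38.2 CPM) lie near 0, and Ccnd1 (532 CPM) lies above both mutant neighbours.

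AT1 cells also send signals and build the basement membrane they share with capillaries. Of 25 measured secreted signals, 19 were higher than in low-Ager cells, 11 of them 2-fold or more, and 3 were at least 2-fold lower. Over all genes, 6.27% were at least 2-fold higher and 9.43% lower in that comparison. The median log2 ratio of the signals was 0.92. Vegfa, the growth factor for alveolar capillaries, had 249 CPM (5.90-fold above low-Ager, 2.20-fold under high-Ager mutant and 3.19-fold under control cells). Igfbp2, an insulin-like growth factor binding protein of AT1 cells, had 644 CPM against 61.7, 1090 and 3253. Sema3c, a guidance ligand, went the other way, at 103 CPM against 296 in low-Ager, 47.3 in high-Ager and 4.24 in control cells. Among 25 basement membrane and integrin genes, 12 were at least 2-fold above low-Ager cells and 1 at least 2-fold lower. Those counts stand beside the same shares of all genes, and the median was 0.92. Of 23 measured against high-Ager mutant cells, 1 was at least 2-fold higher and 2 lower, beside 5.09% and 2.69% of all genes. That median was -0.20. Col4a3, an AT1 chain of basement membrane collagen, had 161 CPM against 8.88 in low-Ager, 358 in high-Ager and 764 in control cells. The matrix protein Sparc had 2052 CPM against 246, 3879 and 7926. Both were thus between the mutant neighbours and under the control.

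Most of the Sftpc RNA of intermediate cells lay in a few of them. Sftpc, the surfactant protein of AT2 cells, was 2695 CPM in intermediate, 168 in low-Ager, 6078 in high-Ager and 8933 in high-Ager control cells, but the 10% of intermediate cells with the most held 86.8% of its UMIs and the median cell had 217 CPM. Without cells carrying RNA of another cell type, whose definition uses Sftpc, the levels were 475, 146, 1336 and 2372 CPM. Sftpc was also found in cells that should lack it, at 339 CPM in mutant endothelial cells, and the part of free RNA in these levels was not tested. Sftpd, a surfactant collectin, behaved differently, with 948 CPM in intermediate, 804 in low-Ager, 1471 in high-Ager and 135 in control cells, and 918, 818, 1420 and 69.0 CPM without the marked cells. Sftpd in endothelial cells of the mutant was 11.3 CPM. Of 29 measured AT2 and surfactant genes, 15 were at least 2-fold above low-Ager cells and 2 lower, beside 6.27% and 9.43% of all genes. Without the marked cells the counts were 12 and 4 of 28, beside 728 and 1053 of all 11973 genes tested. Lamp3, Slc34a2 and Abca3 were limited by the choice of cells. Cathepsin H (Ctsh) had 1045 CPM against 388, 1524 and 981.

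Genes seen in injured or transitional epithelium were mixed. Of 25 measured, 3 were at least 2-fold higher than in low-Ager cells and 5 lower, with a median log2 ratio of 0.00, beside 6.27% and 9.43% of all genes. Against high-Ager control cells, 16 of 24 were at least 2-fold higher and 1 lower, beside 13.5% and 9.87% of all genes, with a median of 1.63. Clu, a secreted chaperone, had 1517 CPM, 7.48-fold (7.26 to 7.71) under low-Ager cells, which had 11350, yet 3.62-fold above high-Ager mutant and 38.8-fold above control cells. The 10% of intermediate cells with the most Clu held 66.97% of its UMIs. The median intermediate cell had 440 CPM of Clu, against 7636 in low-Ager, 214 in high-Ager and 0 in control cells. Sprr1a, a cornified envelope precursor, had 811 CPM against 3410 in low-Ager and 83.0 in high-Ager cells. It had no UMI in the 454 control cells, so intermediate cells were at least 893-fold higher, taking 3 counts over the group as the floor. Nupr1, a stress-induced chromatin protein, had 511 CPM against 768, 130 and 6.06. Cdkn1a, the cell cycle inhibitor p21, had 235 CPM against 472, 175 and 59.98, and lay 1.35-fold (1.19 to 1.53) above high-Ager mutant cells. That small difference had the other sign, at -0.042 on the log2 scale, when cells with any AT2 marker UMI were left out. Lgals3, a galectin, had 1247 CPM against 719 in low-Ager, 1514 in high-Ager and 467 in control cells.

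Stomach genes had no UMI in 168 of 266 intermediate cells. Of 16 measured stomach genes (22 listed), 12 were at least 2-fold under low-Ager cells and 1 was at least 2-fold above, beside 9.43% and 6.27% of all genes. Their median log2 ratio was -3.16, in which 3 genes with no UMI in 1 of the groups stand at the bound set by 3 counts. Of 8 measured against high-Ager mutant cells, 6 were at least 2-fold higher and 1 lower, beside 5.09% and 2.69% of all genes. The median log2 ratio of these 8 was 2.64, with an interval over genes from -1.69 to 6.02, which includes 0. The summed list was 514 CPM in the 82 intermediate cells under 0.2% Ager and 61.9 and 65.4 CPM in the 79 and 105 cells above. In high-Ager cells it was 54.8 CPM, so the excess lay in some of the cells near the lower limit. Of the 463 UMIs of the list in those 82 cells, 231 were Tff2 and 118 were Cym, both seen in few cells. Trefoil factor Tff2 had 85.7 CPM in intermediate, 606 in low-Ager and 1.33 in high-Ager cells and no UMI in control cells. Tff1 had 11.7 CPM against 448, a 38.3-fold (27.4 to 55.3) lower level. Tff2 was seen in 9.40% of intermediate cells before thinning and 3.01% (1.31 to 5.84) after it, against 33.9% of low-Ager cells and 0.632% of mutant endothelial cells after it. All its UMIs lay in 25 of the 266 cells. Cym, the milk-clotting protease chymosin, was at 0 in 253 of 266 cells and reached 12472 CPM in 1 of them. Agr2, a secretory protein chaperone, had 142 CPM in low-Ager cells and no UMI in intermediate cells, which is at least 137-fold lower with the same floor. Intestinal genes showed the same side: 9 of 10 measured were at least 2-fold under low-Ager cells, beside 9.43% of all genes. Among the 9 was Lgals4, at 16.5 CPM against 274. On the scale from low-Ager to high-Ager cells, the 11 stomach genes with a position had a median of 93.4% in linear CPM, against 40.9% for the AT1 genes. In log2 CPM the order of the lists was the other way, with medians of 60.8% for the stomach genes and 69.3% for the AT1 genes, so no order between them is read.

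**Figure D3:**
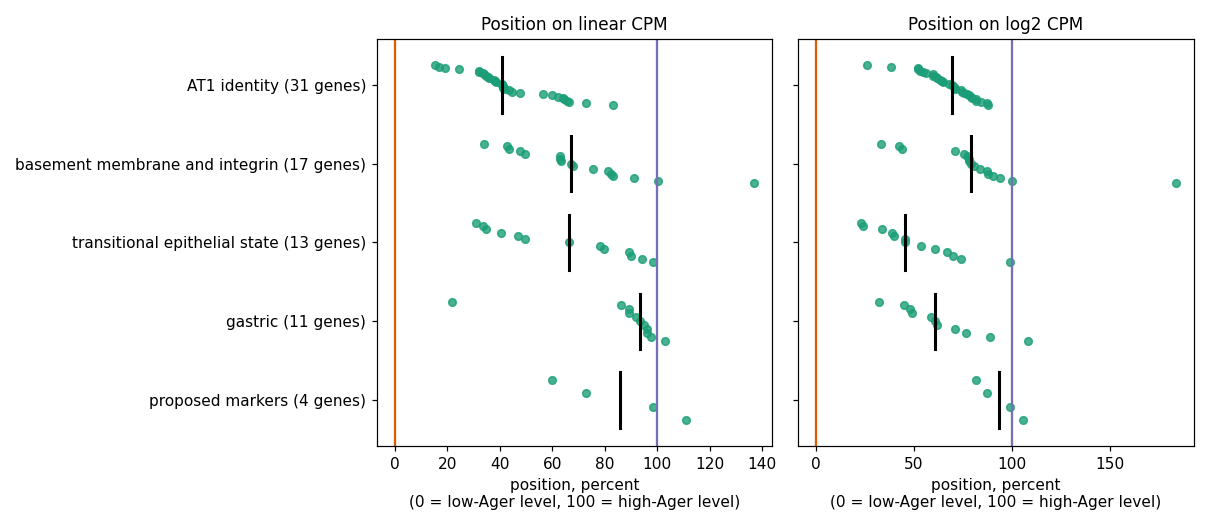
Position (x axis, percent) of each gene in intermediate cells between its level in low-Ager (0) and high-Ager (100) mutant cells, in linear CPM (left) and log2 CPM (right), for genes that differ at least 2-fold between those groups; dots are genes and black lines list medians. The median of the stomach genes is 93.4% on the left and 60.8% on the right, and that of the AT1 genes 40.9% and 69.3%, so their order depends on the scale.

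Levels along finer steps of Ager differed in shape from gene to gene. These steps are defined by Ager and are a description. They include the cells carrying RNA of another cell type, and values without those cells are not given. From under 0.01% Ager (1152 mutant cells) through 0.03% to under 0.1% (124 cells) to the 3 steps within the intermediate range (82, 79 and 105 cells) and to high-Ager cells, Kcne2 was 58.2, 348, 389, 409, 483 and 398 CPM. Kcne2 thus had most of its level before the intermediate range began. Sfn over the same steps was 78.0, 247, 305, 271, 304 and 298 CPM. Rtkn2 was 0.447, 1.96, 15.5, 9.34, 53.2 and 164 CPM, so most of its gain lay at the upper end. Sftpc over the 3 steps within the range was 2428, 1383 and 3884 CPM, and the part of Sftpc-rich cells in the Rtkn2 levels was not tested. Hopx was 20.6, 41.1, 75.4, 78.3, 134 and 250 CPM, level over the first 2 steps of the range and higher in the last. Clu over these steps was 12389, 4334, 2412, 1112, 1116 and 419 CPM, and Spp1, secreted osteopontin, 786, 185, 115, 16.4, 13.9 and 4.42 CPM. Tff2 was 691, 82.2, 256, 8.18, 9.59 and 1.33 CPM, the value of 256 coming from cells at the lower end of the range.

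**Figure D4:**
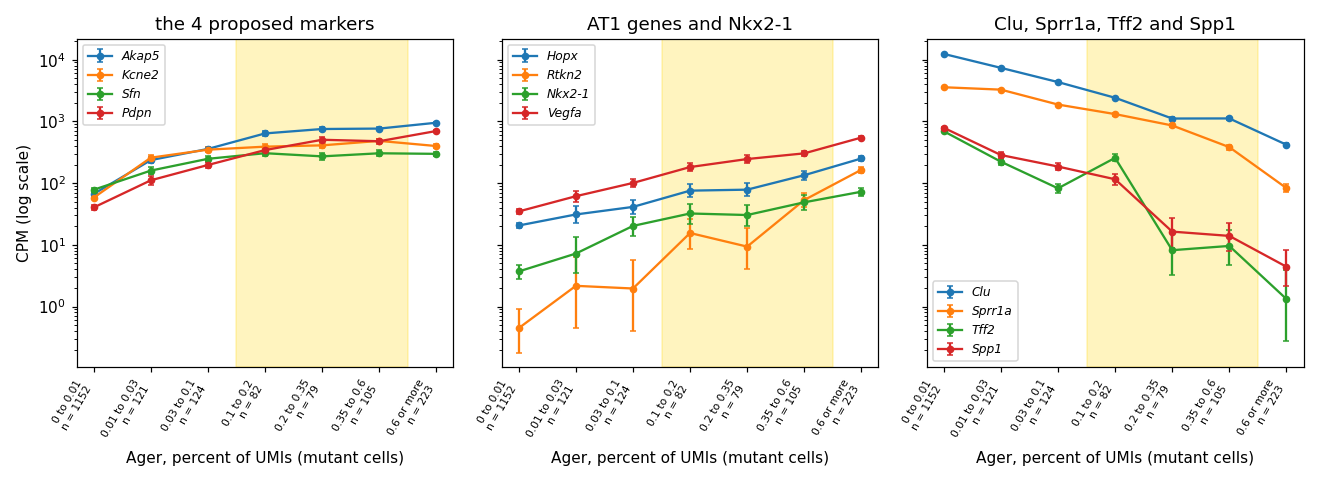
CPM (y axis, log scale) of 12 genes in mutant cells by share of Ager (x axis, percent of UMIs, with the number of cells), with exact 95% Poisson intervals; the shaded steps are the intermediate range. Kcne2 and Sfn stay between 271 and 483 CPM across it, Rtkn2 and Hopx are higher at its upper end, and Clu, Sprr1a, Tff2 and Spp1 are lower.

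A gene of cell cycle entry stood above both neighbours. Ccnd1, cyclin D1, had 532 CPM (506 to 559) in intermediate, 238 in low-Ager, 332 in high-Ager and 10.3 in high-Ager control cells. This was 1.60-fold (1.47 to 1.75) above the higher neighbour and 51.6-fold (36.8 to 74.8) above control cells, and 543, 238, 341 and 9.64 CPM without the marked cells. After thinning, 61.3% of intermediate cells had a Ccnd1 UMI, against 32.0%, 36.3% and 1.32% in the other groups and 32.4% of mutant endothelial cells, which express it. Of 1326 genes with enough counts, 8 were at least 1.5-fold above both neighbours and 3 at least 2-fold. The 3 were S100a9, S100a8 and Lyz2, all genes that myeloid immune cells express, and the source of this RNA was not tested. Without the marked cells 5 of 1333 were above 1.5-fold and none above 2-fold. Of the 8, Lgals1, a galectin (1.66-fold), Synpo, an actin regulator (1.60-fold), Ccnd1 (1.59-fold) and Nr4a1, an immediate early nuclear receptor (1.52-fold), were among them, and Hp, S100a9, S100a8 and Lyz2 were not. S100a9, S100a8 and Lyz2 then lay under the 100 CPM in intermediate cells that this count requires. They were thus not compared, and their levels without the marked cells are given further below. The fifth was Cald1, an actin-binding caldesmon, at 1.51-fold without and 1.42-fold with the marked cells. These genes were picked for this order, and no test is given. None of 1051 genes was 1.5-fold under both neighbours. The inhibitors of differentiation Id1 and Id2 had 862 and 709 CPM, against 602 and 432 in high-Ager mutant and 151 and 80.6 in control cells. Without the marked cells, Id1 was 928 CPM in intermediate, 484 in low-Ager and 649 in high-Ager cells. Id2 was 766, 582 and 459 CPM in the same order. These levels were 1.43-fold and 1.32-fold above the higher neighbour, which was high-Ager for Id1 and low-Ager for Id2.

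Genes of DNA replication were higher in intermediate than in high-Ager mutant cells. Of 21 measured S phase genes, 20 were higher than in high-Ager mutant cells, 11 of them 2-fold or more. Their median log2 ratio was 1.02, where 5.09% of all genes were at least 2-fold higher and the all-gene median was 0.04. Against low-Ager cells none of 22 was 2-fold higher and 1 was lower, beside 6.27% and 9.43% of all genes, with a median of 0.02. The summed level of the list was 590 CPM in intermediate, 562 in low-Ager, 340 in high-Ager and 253 in control cells. Mcm3, a subunit of the replication helicase, had 29.6 CPM against 18.6, 8.83 and 4.54. Hells, a chromatin remodeller of dividing cells, had 24.4 CPM against 25.5, 7.07 and 0.303. The signal lay in part of the cells: the median intermediate cell had 281 CPM of the list and the highest 10% started at 1352 CPM, against a median of 271 and a start of 546 in high-Ager cells. In low-Ager cells the median was 284 CPM and the highest 10% started at 1330 CPM. The G2 and M phase list had another order, with summed levels of 528 CPM in intermediate, 532 in low-Ager, 652 in high-Ager and 681 in control cells. Of its 21 genes measured against low-Ager cells 1 was 2-fold higher and 4 lower, beside 6.27% and 9.43% of all genes. Of 7 measured against high-Ager mutant cells 1 was 2-fold higher and 1 lower, beside 5.09% and 2.69% of all genes. All groups were limited to few UMIs of Mki67, Top2a and Birc5, so shares of cycling cells are not given.

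Against high-Ager control cells, the largest differences lay on both sides. Higher in intermediate cells, after Sprr1a, were Fxyd6, a sodium pump regulator (240 CPM, at least 264-fold by the floor), Foxq1, a forkhead transcription factor (178 against 1.52 CPM, 117-fold with an interval from 50.02 to 363), Gsta4, a glutathione transferase (319 against 3.33), Nupr1, Ccnd1, Clu, Mt2, a metallothionein (772 against 20.6), Ly6e (904 against 26.1) and Fabp5, a fatty acid binding protein (612 against 20.3). Lower were Lims2, a focal adhesion protein (1.03 against 135 CPM), Fjx1 (3.10 against 200), Aqp1, a water channel (27.5 against 1475), Ddc (3.44 against 170), Lgi3 (6.54 against 219), Rtkn2, Plod2, a collagen lysyl hydroxylase (5.85 against 143), Rgcc (32.7 against 710), Galnt18 (19.96 against 427) and Bdnf, a neurotrophin (6.20 against 128). Without the marked cells, intermediate levels were 0.407 CPM for Lims2 (1 UMI), 2.03 CPM for Lgi3 (97.3-fold under the control) and 13.4 CPM for Rgcc (57.1-fold). Without those cells the control levels of Gsta4, Nupr1, Mt2, Ly6e and Fabp5 were 1.85, 3.71, 8.16, 12.2 and 13.7 CPM, and their ratios to the control lay between 48.5 and 192. Several of the higher genes, such as Gsta4 with 1656 CPM, were higher still in low-Ager cells. Fxyd6 was not, at 184 CPM.

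Among the largest differences from the other mutant groups were further AT1 genes. Nnat, a small membrane protein, had 202 CPM against 11.6 in low-Ager cells, Pmp22 231 against 16.1, and Fbln5, an elastic fibre protein, 140 against 14.2. Under the high-Ager mutant cells stood Rtkn2, Tmem37 (74.0 against 365 CPM), Sec14l3 (61.3 against 267), Rgcc (32.7 against 133) and Scnn1b, a sodium channel subunit (26.9 against 100.7). Above them stood S100a9, S100a8, Lyz2 and Scgb1a1. Scgb1a1, the club cell secretoglobin, had 2555 CPM against 40.2, but 41.5 against 42.6 without the marked cells. S100a9 was 34.2 CPM, S100a8 39.1 CPM and Lyz2 25.2 CPM in intermediate cells without them, against 2.63, 2.63 and 20.5 CPM in high-Ager cells. The summed immune markers were 177 CPM in intermediate, 55.5 in low-Ager, 34.9 in high-Ager and 129 in control cells. Club markers summed to 2698, 6039, 49.5 and 329 CPM, with 3 of 7 at 0 in intermediate cells, and all 5 neuroendocrine markers were at 0 there.

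**Figure D5:**
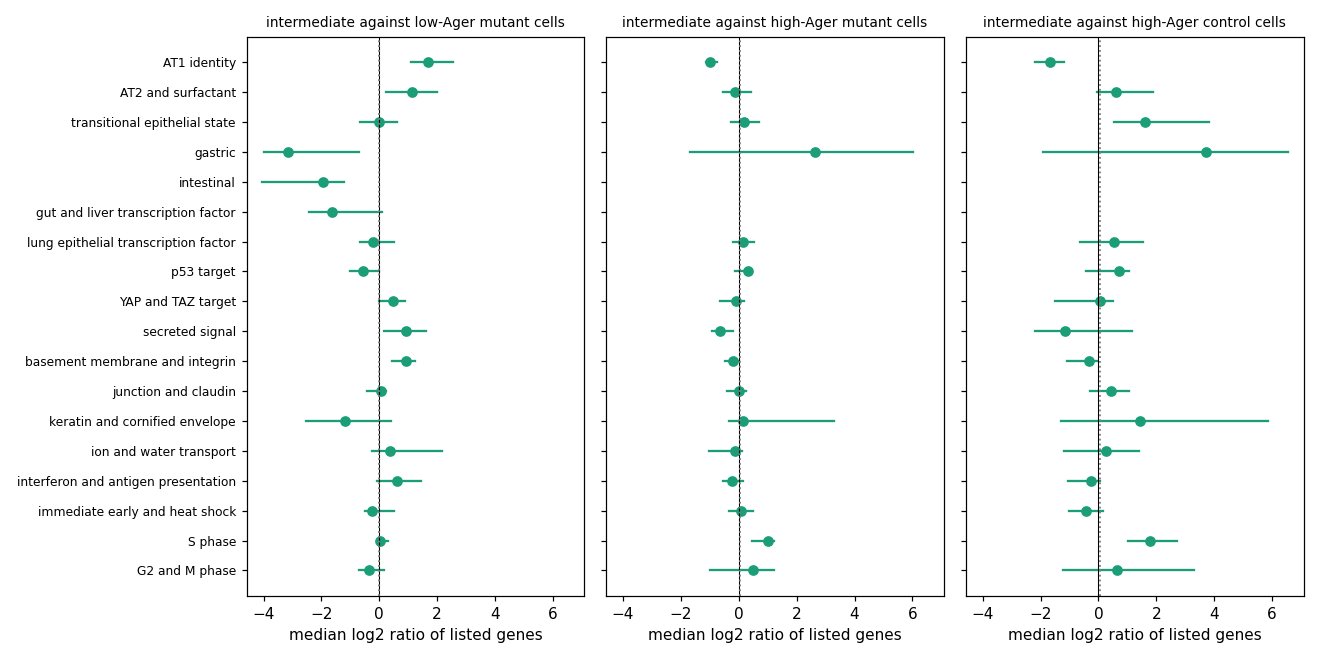
Median log2 ratio (x axis) of intermediate cells against each other group for lists with at least 5 measured genes; dots are medians, lines exact binomial 95% intervals of a median over genes, dotted lines the median of all genes. The AT1 list is at 1.68 against low-Ager, -1.01 against high-Ager mutant and -1.66 against control cells.

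The counts of the remaining lists against low-Ager cells are read beside the shares over all genes, 6.27% at least 2-fold higher and 9.43% lower. Of 24 junction genes, 1 was at least 2-fold above and 3 under low-Ager cells, near those shares. Of 22 measured p53 targets, 6 were at least 2-fold under low-Ager cells and none above. For 18 measured targets of YAP and TAZ, the factors that answer to stretch, 4 were at least 2-fold above low-Ager cells and 1 under. Ctgf was one of them, at 131 CPM against 23.2, 167 and 116. Among 19 immediate early and heat shock genes, 1 was 2-fold above and 2 under low-Ager cells, and Jun was lower than in each other group, at 206 CPM against 272, 289 and 731. Of 25 lung epithelial transcription factors 4 were 2-fold above and 4 under low-Ager cells. Of 14 keratin and cornified envelope genes, 1 was 2-fold above and 7 under, and of 7 gut and liver transcription factors none was above and 4 were under. Among 19 genes of ion and water transport 8 were 2-fold above and 3 under, and among 21 genes of interferon response and antigen presentation 7 were above and 1 under (9 and 1 of 20 without the marked cells).

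Intermediate cells differed among themselves, and 2 genes describe this. Among the 220 cells without RNA of another cell type, 23 had an Nkx2-1 UMI and 197 had none, at median depths of 10273 and 10329 UMIs. Cells with it had 79.5 CPM of Rtkn2 (50.4 to 119) against 7.38 (4.22 to 11.98), 214 against 70.1 of Hopx, 1233 against 374 of Sftpc and 1303 against 920 of Cldn18. Ager was alike, at 3082 and 3129 CPM, and Pdpn (380 and 470), Akap5 (684 and 727) and Igfbp2 (311 and 759) were not higher in cells with an Nkx2-1 UMI. Tff2 (325 and 71.5) and Clu (2899 and 1570) were higher in them, and Sprr1a (753 and 966) was lower. The higher Tff2 value was 94 UMIs over 23 cells. After thinning, 1 of all 266 cells had a UMI of both Nkx2-1 and Tff2, so that value may rest on very few cells. Clu was uneven too, with 66.97% of its UMIs in 10% of all 266 cells, so its difference may also rest on few cells. A cell without a UMI may still express the gene, and cells of 1 library are not replicates. Sprr1a was seen in 148 of all 266 cells, whose median depth was 11328.5 UMIs against 9181.5 in the rest. Those had 2189 CPM of Clu against 511 in the other 118, 141 against 2.58 of Tff2, 20.1 against 65.3 of Nkx2-1 and 12.1 against 53.3 of Rtkn2, while Pdpn was 427 against 467, Akap5 676 against 790 and Kcne2 459 against 391 CPM. This split by Sprr1a includes the cells carrying RNA of another cell type, and Sftpc was 873 against 5423 CPM. Values of the split without those cells are not given, so their part in the Nkx2-1 and Rtkn2 differences was not tested.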

How the data were processed

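Raw counts of UMIs per gene and barcode were used as the authors deposited them, from 1 control and 1 mutant droplet library. Cell Ranger, Seurat and mm10 are named per the submitters' processing notes, with versions not given in the sources used here. No control barcode had fewer than 2278 UMIs and no mutant barcode fewer than 3874, which means that a depth limit preceded the deposit.

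Cells were selected by the limits stated above. The members and gene lists were chosen with earlier results of these data known. Counts were summed over cells and divided by total UMIs (CPM), with exact Poisson intervals for levels and conditional binomial intervals for ratios. Genes with at least 20 UMIs over both groups entered list counts, and genes of the selection rule did not. Against 0 UMIs, a floor of 3 counts over the group was used. Shares of cells with a UMI were taken after thinning to 2000 UMIs, with Clopper-Pearson intervals. Scrublet marked 110 mutant (2.49%) and 142 control (3.43%) doublets, which were kept. Genes were named by a rule: the 10 largest and 10 smallest ratios per comparison with at least 50 UMIs and 100 CPM in the higher group, the most abundant 3 and the 2 largest and 2 smallest ratios per list, and the proposed markers, Nkx2-1 and Aqp5. Other genes described were chosen after their values were seen. The computation was tested on simulated data. Tools were numpy 2.4.6, pandas 2.3.3, scipy 1.17.1, scanpy 1.11.5 and matplotlib 3.10.9.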

Additional observations from a re-analysis of the deposited data

How the results depend on the processing

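Over 11 alternatives, 573 of 581 list medians stayed within their interval, as did 677 of 818 gene ratios, while 140 gene ratios moved and 1 reversed, with 812 keeping their sign. Positions on the log2 scale, chosen after seeing the data, reversed the order of the AT1 (69.3%) and stomach (60.8%) lists. The number of intermediate cells was 266, and became 190 with Ager from 0.15% to under 0.5%, 158 with AT2 markers at 0 UMIs, 208 with mitochondrial UMIs under 5%, and 220 without cells carrying another type's RNA, an alternative chosen after seeing the data. With a minimum of 1 UMI in place of 20, genes at least 2-fold higher numbered 1787 against low-Ager cells (775 at 20), 1224 against high-Ager mutant cells (503) and 2350 against control cells (1383), and 656 were lower than in high-Ager mutant cells (266). With a minimum of 100 UMIs, higher and lower genes numbered 432 and 615, 84 and 105, and 567 and 594 in the same order of comparisons. The change follows from the number of genes tested. Cdkn1a against high-Ager mutant cells was 0.43 on the log2 scale and -0.042 with AT2 markers at 0 UMIs, and the cause was not tested. Of 64 shares of cells, 53 moved with the thinning depth. No paired analysis was possible because each genotype has 1 library, and for the same reason no replicate could be left out.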
